A study of Mus musculus with 9 samples.

Results

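Known single-exon lncRNA transcripts are annotated long non-coding RNAs that StringTie listed with a single exon and therefore with no splice junction. They were taken as the rows of the authors' lncRNA table that are marked known and have 1 exon, which gave 2483 of 26083 lncRNA transcripts. The other known transcripts of the table numbered 5396 and were spliced, and 18204 transcripts were assembled by the authors without a match to the annotation. Each group had 3 liver RNA libraries, made after ribosomal depletion with strand marking. The groups were pair-fed controls (PF), alcohol-fed mice (AF) and mice given MNA on top of alcohol feeding (AF with MNA). All mice were 8 weeks old by the labels and were fed for 5 weeks, PF on an isocaloric control liquid diet and both AF groups on the Lieber-DeCarli liquid diet. MNA, which the labels do not spell out, was injected daily into the abdominal cavity at 50 mg/kg. The strain was C57BL/6 in the labels of PF and AF. It read C57BL/7, C57BL/8 and C57BL/9 in those of AF with MNA, while the methods describe male C57BL/6J mice only. The comparison of AF with PF asks which transcripts differ under alcohol feeding, and that of AF with MNA against AF asks which differ when MNA is added to it. Nothing in the labels says whether further mice stood behind a library, so the p-values measure the spread between these libraries.

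A transcript without a splice junction cannot be told from genomic DNA or from an unspliced precursor by a junction read, and inside a gene on the same strand its reads can also come from that gene's intron. Some well-known nuclear RNAs are of this kind, among them Malat1 of the nuclear speckles, Neat1, which builds the paraspeckles, and Kcnq1ot1, which silences genes of its imprinted domain in cis. Most other unspliced entries listed here carry the biotype TEC, with which GENCODE marks loci that have transcript evidence but still await an experimental test.

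Short stretches of 5 members on which the comparisons turn are given first, 5′ to 3′ on the transcript's own strand in build GRCm38, from the GENCODE M21 transcript sequences. Gm45724 (chr8:105051049-105051468, minus strand, 420 bp, TEC) starts on 1 base of a Ces3a exon and then runs through the neighbouring Ces3a intron on the other strand. The capital marks that base in its first 120 bases, chr8:105051349-105051468.
Gm45724: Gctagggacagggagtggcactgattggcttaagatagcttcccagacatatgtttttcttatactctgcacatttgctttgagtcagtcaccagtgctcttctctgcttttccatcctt
The next 4 members lie inside introns of coding genes, and their last 60 bases are shown because a polyadenylated RNA usually carries a poly(A) signal shortly before its end. Capitals mark AATAAA or ATTAAA on the transcript strand within the last 50 bases. Gm38357 lies in an intron of Noct (chr3:51231917-51234380, plus strand, 2464 bp), RP24-282C4.9 in an intron of Ddx6 (chr9:44618253-44621018, plus strand, 2766 bp), 4930513N20Rik in an intron of Fgfr2 (chr7:130653128-130654392, minus strand, 1265 bp) and RP23-187B11.10 in an intron of Zfp809 (chr9:22228978-22231302, plus strand, 2325 bp).
Gm38357: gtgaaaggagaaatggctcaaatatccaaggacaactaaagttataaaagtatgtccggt
RP24-282C4.9: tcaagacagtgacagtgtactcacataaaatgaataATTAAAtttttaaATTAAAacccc
4930513N20Rik: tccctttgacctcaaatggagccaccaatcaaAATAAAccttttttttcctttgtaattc
RP23-187B11.10: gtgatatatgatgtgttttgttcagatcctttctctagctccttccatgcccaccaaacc
RP24-282C4.9 held 2 such hexamers and 4930513N20Rik held 1, while none was found in this window of Gm38357 or RP23-187B11.10. Over the 2472 members with a sequence, 880 (35.6%) held one, against 43.1% of 5369 known spliced transcripts. The members also had a lower median GC content, 43.7% against 48.3%.

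By the annotation, 1814 of the 2483 members (73.1%) were TEC entries, 206 antisense, 203 lincRNA, 105 sense intronic and 89 retained introns. A total of 2101 were the only transcript of their gene and 278 were an unspliced isoform of a gene with spliced transcripts, as with Malat1. With respect to coding genes, 1027 members (41.4%) lay inside an intron on the same strand, 597 overlapped a gene on the opposite strand, 54 overlapped an exon on the same strand and 805 (32.4%) overlapped no coding gene. Their lengths ran from 129 to 84395 bp with a median of 2066 bp, and the longest was Kcnq1ot1. The spliced known transcripts had a median of 880.5 bp. The members were unevenly spread over the genome, with 427 on chromosome 5, 389 on chromosome 1 and 323 on chromosome 3 but 87 on chromosome 2 and 9 on chromosome X. The single-exon lncRNA transcripts of the whole M21 annotation were uneven too, with 625 on chromosome 5, 137 on chromosome 2 and 15 on chromosome X. The members equalled 68.3%, 63.5% and 60% of these numbers, but they did not follow the annotation on every chromosome. They equalled 9.41% on chromosome 13 (16 against 170), 18.5% on chromosome 15 (22 against 119) and 24.4% on chromosome 12 (41 against 168). The cause of this shortfall was not tested.

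The liver label matched the marker genes, since 8 of 8 hepatocyte markers had a mean of at least 1 FPKM (fragments normalised to transcript length and library size) and their summed level was between 19887 and 27670 FPKM in every library. Of the other cell types, 6 of 6 Kupffer cell markers (45.3 to 84.9 FPKM in sum), 6 of 6 stellate cell markers, 6 of 6 sinusoidal endothelial markers and the 4 erythroid markers found of 5 listed reached that level, while 0 of 6 lymphocyte and neutrophil markers did and all 6 stayed under 0.5 FPKM. The PF libraries held an endothelial sum of 25.1 to 31.6 FPKM and the AF libraries one of 33.5 to 45.1 FPKM, with 38.1 to 45.4 FPKM after MNA, so it was higher in every alcohol-fed library than in any PF library, and its part in the results was not tested. The erythroid markers summed to 332 to 449.8 FPKM in PF, 293 to 650.3 in AF and 285 to 419.6 after MNA, so these ranges overlapped. Of 5 cholangiocyte markers 1 reached 1 FPKM, and Epcam, Krt19 and Krt7 stayed under 0.5 FPKM. The summed cholangiocyte level was 3.27 to 4.31 FPKM in PF, 4.86 to 9.12 in AF and 3.34 to 6.33 after MNA, again higher in every AF library than in any PF library, and its part was not tested either. In bulk tissue, fewer cells of a type and less RNA per cell cannot be told apart. AF replicate 3 and AF with MNA replicate 1 stood apart in the sum of assembled intronic transcripts, with 9433 and 8934 FPKM against 2477 to 4937 in the other 7 libraries. The summed level of the single-exon members was 3281 and 2963 FPKM in these libraries, within the 2573 to 3360 FPKM of the others. The same libraries nevertheless had the most members at 1 FPKM or more, 315 and 280 against 241 to 273, and the fewest at 0, 1128 and 1119 against 1145 to 1197. The members inside an intron on the same strand summed to 602 FPKM in AF replicate 3, to 477 in AF with MNA replicate 1 and to 396 to 503 in the others. The part of these libraries in the results was not tested beyond the fits without them given below.

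Most members were at a low level. In a given library 1119 to 1197 of the 2483 (45.1 to 48.2%) were listed at 0, against 34.6 to 40.5% of the known spliced transcripts, and 241 to 315 reached 1 FPKM. Above 0 the median was 0.191 to 0.295 FPKM, close to that of spliced transcripts (0.190 to 0.285 FPKM). No member was at 0 in all 9 libraries. A total of 454 members (18.3%) were above 0 in all 9 libraries and 387 (15.6%) in 1 library only, where the spliced transcripts had 33.6% and 15.6%. Between replicates, members with a group mean of at least 1 FPKM had a median coefficient of variation of 16.5% in PF (249 members), 28.9% in AF (263) and 17.5% in AF with MNA (261). In spliced transcripts it was 22.4%, 30.6% and 25.8%. The lower value of the members in PF was not general. There it was 9.99% in 79 members with a near-identical copy elsewhere and 24.3% in 169 without one. It was 41.6% in 61 members inside an intron on the same strand.

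**Figure D1:**
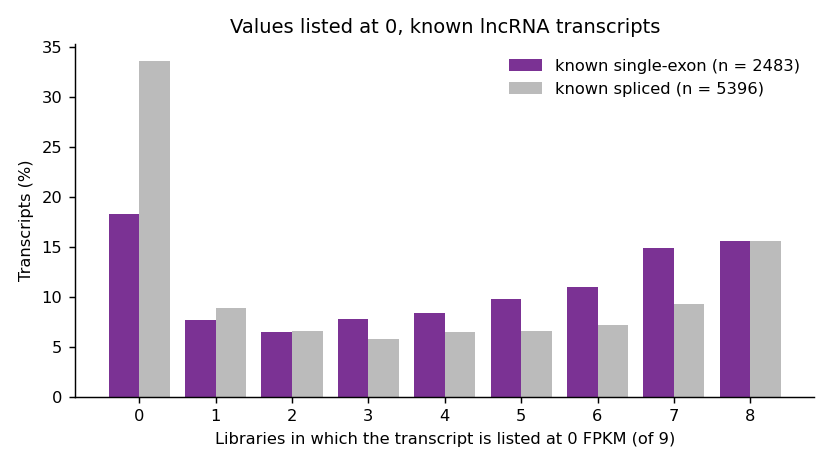
Share of transcripts (%, vertical axis) by the number of the 9 libraries in which they were listed at 0 FPKM (horizontal axis), for 2483 known single-exon transcripts (purple bars) and 5396 known spliced transcripts (grey bars). The spliced transcripts peak at 0 libraries (33.6%), whereas 18.3% of the single-exon transcripts do so.

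A value of 0 was not limited to weak members. At 1 FPKM the coverage column corresponded to 5.84 to 8.30 reads per base, so a transcript at such a level would be covered many times over in each library. Of 301 members whose third-highest library reached 1 FPKM, 109 (36.2%) were nonetheless listed at 0 in at least 1 library, against 88 of 694 spliced transcripts (12.7%). The share was 70.0% of 80 members inside an intron on the same strand, 28.5% of 123 on the opposite strand of a coding gene and 18.3% of 93 away from coding genes. A pair of the highest, singled out after their values were seen, shows this pattern. RP23-356D13.9, a 4663-bp member inside a Ccdc15 intron, was at 23.1, 17.1 and 0 FPKM in PF, 22.2, 22.0 and 27.0 in AF and 24.9, 0 and 24.7 with MNA. Gm37701, inside an Itga8 intron, was at 25.9 to 36.4 FPKM in 8 libraries and at 0 in AF with MNA replicate 1. It has 42 near-identical copies, so its reads may belong to another locus. In both, the libraries were either at 0 or near a common level with little in between, and those of RP23-356D13.9 at 0 belonged to PF and to AF with MNA. Since an exact 0 can be a failed estimate for a locus, such members are described as listed at 0.

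The 10 members with the highest mean level supplied 43.5 to 53.9% of the members' summed FPKM in a library. The highest was Gm10252 (832 bp, chromosome 7), which lies on the opposite strand of Ftl1, the ferritin light chain, and overlaps one of its exons. It was at 373, 278 and 348 FPKM in PF, 495, 523 and 658 in AF and 508, 580 and 501 with MNA. All AF libraries were above all PF libraries, at a log2 ratio of the group means of 0.75, which did not pass the test described below (limma, adjusted p = 0.598). The Ftl1 entry of the gene table was at 232, 370 and 238 FPKM in PF and 394, 625 and 379 in AF, also without overlap. With MNA the Ftl1 entry was at 275, 396 and 338 FPKM and overlapped PF, which Gm10252 did not. The correlation of Gm10252 with Ftl1 over the 9 libraries was 0.42. Gm37376 (453 bp, chromosome 19), on the strand opposite to the 5′ end of Malat1, was at 213 to 250 FPKM in PF, 219 to 342 in AF and 221 to 273 in AF with MNA, so the groups overlapped. Gm44729 lies opposite Sephs2, a selenophosphate synthetase gene, and stayed between 67.1 and 88.9 FPKM in the 9 libraries.

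Several other abundant members have near-identical copies in the genome. A total of 138 members shared at least 50% of their length at 95% identity or more with an annotated transcript at another locus, and reads from such copies cannot be told apart with certainty. These 138 supplied 34.5 to 46.4% of the members' summed FPKM. RP24-134D11.2 (34 copies) was at 53.9 to 78.1 FPKM, RP23-167J19.2 (27 copies) at 50.4 to 75.3, RP23-16N3.16 (26 copies) at 46.6 to 67.4, Gm42860 (3 copies) at 53.1 to 71.6, RP23-285L15.1 (2 copies) at 40.5 to 61.8 and Gm29084 (6 copies) at 32.3 to 49.1. The largest difference among these 6 was a log2 ratio of -0.28 between AF and PF in RP23-16N3.16, and none was called. Gm42429 (4 copies, chromosome 5) was at 153, 164 and 126 FPKM in PF and 115, 81.5 and 98.2 in AF, lower in every AF library, with a log2 ratio of -0.59 that missed the fold threshold. A pair of short abundant members behaved otherwise. Gm42428 (302 bp, chromosome 5) was at 160, 267 and 111 FPKM in PF replicate 3, AF replicate 1 and AF with MNA replicate 2, and at 0 in the other 6 libraries. The transcript ENSMUST00000213811 (287 bp, chromosome 10) was at 162, 268 and 111 FPKM in the same 3 libraries and at 0 in the same 6. The 287 bases of ENSMUST00000213811 are all contained in Gm42428 at 100% identity, so these entries cannot be counted as separate observations.

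For the tests, limma with an intensity trend was fitted to log2(FPKM + 1). All lncRNA transcripts entered whose average in the 6 libraries concerned reached 0.1 FPKM, and a transcript was called where the unadjusted p was under 0.05 and the log2 ratio of the group means was beyond 1 or -1. In AF against PF, 1181 members were tested and 25 were called, 14 higher and 11 lower in AF. Over all 18310 lncRNA transcripts tested the same rule called 2.47%, namely 1.41% higher and 1.06% lower, beside 2.12%, 1.19% and 0.93% of the members, which is near the background. An unadjusted p under 0.05 was reached by 31 members (2.62%), the same share as over all transcripts (2.62%). After Benjamini-Hochberg adjustment over all transcripts 1 member remained (0.0164% of all transcripts did), namely Gm38357. The AF libraries lay wholly above the PF libraries in 60 members (5.08%) and wholly below them in 49 (4.15%), against 3.51% and 2.73% of all transcripts and 5.99% and 7.79% of the known spliced transcripts. The median difference over the tested members was -0.01 on log2(FPKM + 1), against 0.14 over all transcripts. Without AF replicate 3, where the assembled intronic transcripts were high, the latter became -0.09 and the members' counts were 11 higher and 12 lower, which is 2.07% of the members tested against 3.63% of all transcripts in that fit. The counts of higher members were lowest without PF replicate 2 (7), PF replicate 3 (9) and AF replicate 2 (9). In these fits 1.31%, 1.56% and 1.52% of the members were called in either direction, beside 2.15%, 2.02% and 3.22% of all transcripts.

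**Figure D2:**
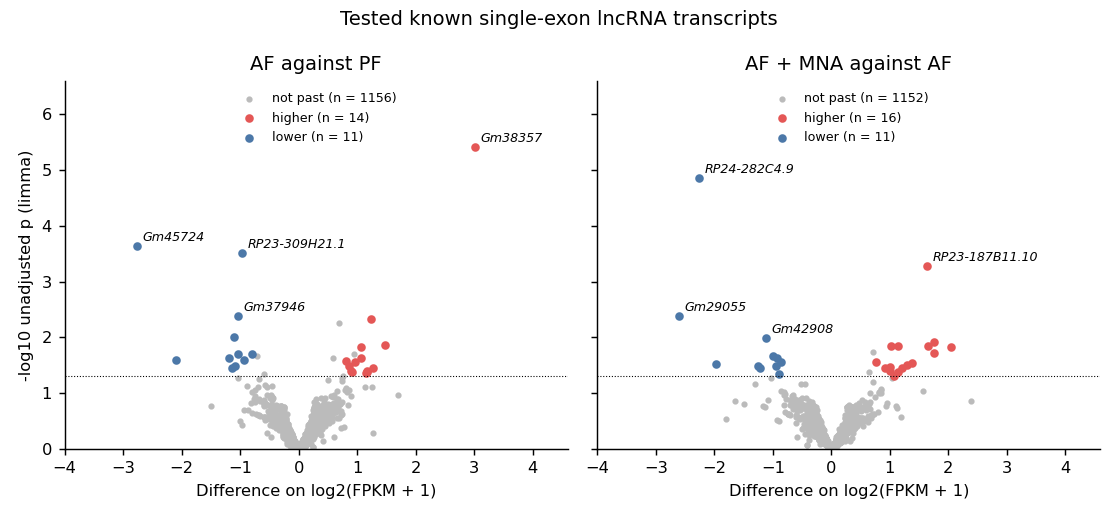
Difference between groups on log2(FPKM + 1) (horizontal axis) against -log10 of the unadjusted limma p (vertical axis) for tested single-exon members, AF against PF at left (n = 1181) and AF with MNA against AF at right (n = 1179). Red points are called higher (14 and 16), blue points called lower (11 and 11), grey points are not called, and the dotted line marks the 0.05 threshold. Gm38357 at left and RP24-282C4.9 at right have the smallest p.

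Of the members higher in AF, Gm38357 differed most. It lies inside an intron of Noct, which encodes nocturnin, a rhythmic liver phosphatase acting on NADP(H). Gm38357 was listed at 0 in all 3 PF libraries, at 10.5, 4.14 and 7.97 FPKM in AF, and at 9.29, 3.76 and 4.05 in AF with MNA. All 6 alcohol-fed libraries were therefore above the PF libraries, and against a group listed at 0 no fold is given. The 3 equal values of 0 have no spread, and an exact 0 can be a failed estimate for a locus. The difference from PF was 3.02 ± 0.32 (SE) on log2(FPKM + 1) with an adjusted p of 0.0237 by limma, and it was called in each of the 6 fits that left out 1 library. The adjusted p was under 0.05 in 1 of these 6 fits, the one without AF replicate 2. The Noct gene entry itself was at 15.4, 20.4 and 23.7 FPKM in PF and 24.3, 16.4 and 21.8 in AF, and the difference was not past the threshold (limma, adjusted p = 0.935).

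By the M21 annotation, 4930513N20Rik lies inside an intron of the growth factor receptor gene Fgfr2. The entry that holds Fgfr2 transcripts joins 43 transcripts and carries the name Ctbp2. That entry was at 2.05, 1.72 and 2.12 FPKM in PF and 1.73, 1.26 and 2.00 in AF. Its correlation with 4930513N20Rik over the 9 libraries was -0.65. 4930513N20Rik was at 1.66, 1.56 and 1.07 FPKM in PF, 4.77, 8.05 and 2.55 in AF and 2.98, 3.41 and 2.44 with MNA. It was above 0 in every library and every alcohol-fed library exceeded every PF library. The log2 ratio of AF to PF was 1.84, and the difference on log2(FPKM + 1) was 1.24 ± 0.34 (SE, limma, adjusted p = 0.598). Gm37139, on the strand of Ehmt1 and over one of its exons, was listed at 0 in PF and at 0.860, 0.710 and 1.86 FPKM in AF, a difference of 1.06 ± 0.36 (SE, limma, adjusted p = 0.598). Both were called whichever library was left out.

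The other higher members rested on fewer libraries. B230322F03Rik, opposite to Nudt19, a coenzyme A hydrolase gene, was at 2.80, 0 and 0 FPKM in PF, 4.08, 2.40 and 3.81 in AF and 0, 5.57 and 3.65 with MNA, so PF and AF overlapped. Its difference of 1.48 ± 0.49 (SE, limma, adjusted p = 0.598) was no longer called without PF replicate 2, PF replicate 3 or AF replicate 3. Gm43808, opposite to Tmem214, was at 1.47, 1.63 and 0 FPKM in PF and at 2.19, 3.97 and 2.78 in AF, and was at 2.90 to 3.33 in AF with MNA. Its difference of 1.07 became 0.62 without PF replicate 3, and the call was lost there and without AF replicate 2 or AF replicate 3. 4833412K13Rik (Farsb intron) was at 0, 0 and 0.961 FPKM in PF and 1.13, 1.75 and 1.43 in AF, and was called in 2 of 6 fits with a library left out. Gm44878 (opposite to Ppp6r1) was at 0, 0 and 2.89 FPKM in PF and 2.39, 2.35 and 2.68 in AF. RP24-282K24.4 (Ppp2r5e intron), Gm43360 (Atp2a2 intron, the calcium pump of the endoplasmic reticulum) and Gm38366 (Qrich1 intron) were at 0 in all PF libraries and in 1 AF library, with 2.09 to 3.07 FPKM in the other AF libraries. Each of these last 4 was called in 1 of the 6 fits with a library left out.

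Of the members lower in AF, Gm45724 differed most. Ces3a and its neighbour Ces3b encode carboxylesterases of the hepatocyte endoplasmic reticulum, and their transcripts share 1 entry in the authors' gene table, which carries the name Ces3b. Gm45724 was at 30.9, 22.6 and 12.0 FPKM in PF, 1.04, 1.16 and 6.13 in AF and 3.27, 15.5 and 12.8 with MNA. Every AF library was below every PF library, and 2 of the 3 libraries with MNA were above every AF library. The log2 ratio of AF to PF was -2.98 and the difference on log2(FPKM + 1) was -2.76 ± 0.49 (SE, limma, adjusted p = 0.28), called in 6 of 6 fits with a library left out. The Ces3b entry went from 190, 198 and 199 FPKM in PF to 69.5, 92.3 and 83.5 in AF, a log2 ratio of -1.26 (limma, adjusted p = 0.0363 over the gene table).

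Gm37946 (347 bp) lies opposite to an intron of Zbtb20, a zinc finger repressor of the liver. It was at 3.33, 4.85 and 5.49 FPKM in PF and 2.58, 1.19 and 1.42 in AF, without overlap, with a log2 ratio of -1.40 (limma, adjusted p = 0.598). The Zbtb20 entry was at 6.18, 3.94 and 6.28 FPKM in PF and 2.47, 2.70 and 2.43 in AF, a log2 ratio of -1.11 (limma, adjusted p = 0.147). RP23-309H21.1 (986 bp, chromosome 10) was at 15.8, 15.7 and 16.0 FPKM in PF and 7.33, 7.43 and 8.12 in AF, a log2 ratio of -1.05 with little spread (limma, adjusted p = 0.336). It stayed at 7.26, 8.63 and 10.4 FPKM in AF with MNA. It has 24 copies at 95% identity or more, so its reads may belong to another locus. Both were called whichever library was left out, but RP23-309H21.1 was not called after scaling to a common median or with the limma coefficient as the fold change.

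The unspliced Malat1 transcript (6983 bp) was at 12.5, 221 and 62.4 FPKM in PF, 18.8, 8.36 and 12.0 in AF and 5.51, 14.2 and 13.9 with MNA. PF replicate 1 lay within the AF range, and PF replicate 2 was far above all other libraries. The log2 ratio of AF to PF was -2.92 and the difference on log2(FPKM + 1) was -2.10 ± 0.80 (SE, limma, adjusted p = 0.598). It became -1.13 without PF replicate 2, and the call was lost without PF replicate 2, PF replicate 3, AF replicate 2 or AF replicate 3. A short spliced Malat1 transcript of 485 bp over the same 5′ end was at 246, 157 and 278 FPKM in PF and 353, 238 and 425 in AF, and was lowest in PF replicate 2, where the unspliced one was highest.

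The remaining lower members were weak and mostly intronic. 9430034N14Rik (Tor1aip1 intron) was at 1.74, 0.968 and 0.827 FPKM in PF and at 0 in AF, and lost its call without PF replicate 1. Gm37238 was at 2.75, 2.30 and 1.89 FPKM in PF and 2.06, 0 and 0 in AF, RP23-307F3.6 (Zfc3h1 intron) at 2.54, 1.46 and 2.09 in PF and 1.84, 0 and 0 in AF, and Gm43362 (intron of the splicing factor gene Srsf11) at 1.10, 2.01 and 1.71 in PF and 0.975, 0 and 0 in AF. In these 3 members AF replicate 1 was within the PF range or just under it, and AF replicates 2 and 3 were listed at 0. Each of the 3 was called in 2 of 6 fits with a library left out. Gm44243, inside an intron of the autophagy gene Gabarapl1, was at 3.47, 2.23 and 0.731 FPKM in PF and 0, 1.36 and 0 in AF, and lost its call without PF replicate 1, PF replicate 2, AF replicate 1 or AF replicate 3.

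**Figure D3:**
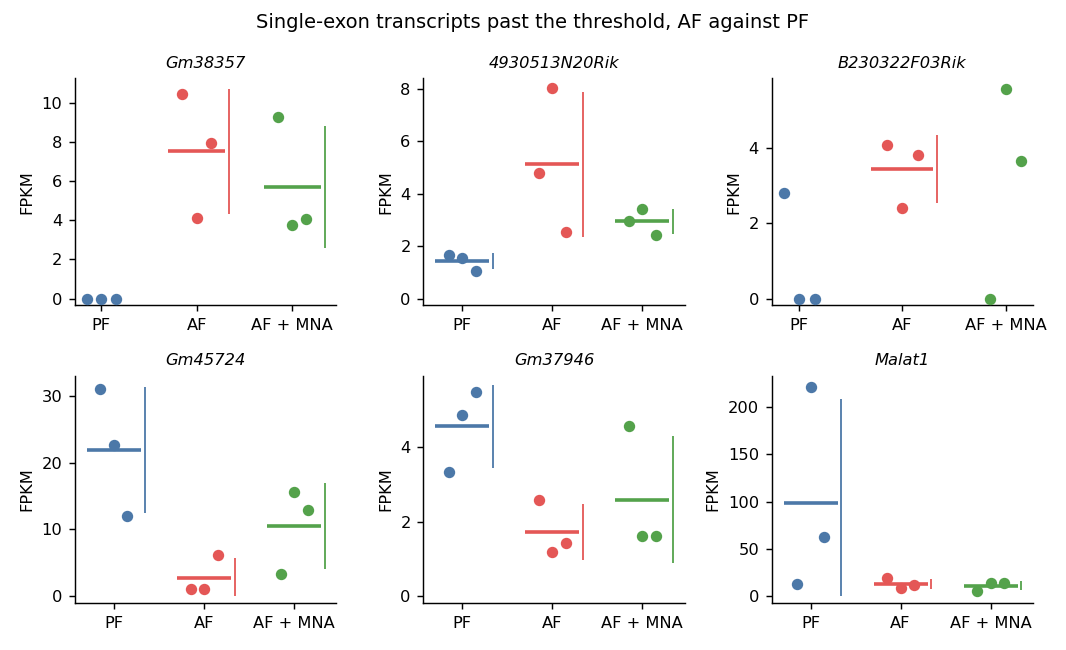
FPKM (vertical axes, each from 0) in PF (blue), AF (red) and AF with MNA (green) for 3 members called higher in AF (Gm38357, 4930513N20Rik, B230322F03Rik) and 3 called lower (Gm45724, Gm37946, unspliced Malat1). Points are libraries in replicate order, and horizontal lines with side bars give the mean and 1 SD (n = 3, drawn down to 0 at most) where no library is at 0; PF replicate 2 at 221 FPKM sets the Malat1 mean.

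In AF with MNA against AF, 1179 members were tested and 27 were called, 16 higher and 11 lower with MNA. Over all 19752 transcripts tested, 1.75% were called, 0.633% higher and 1.11% lower, against 2.29%, 1.36% and 0.93% of the members. An unadjusted p under 0.05 was reached by 29 members (2.46%, against 1.81% of all transcripts) and an adjusted p under 0.05 by 0 members (0.0% of all transcripts) by limma. The unmoderated fit with a library-size covariate also gave 0 members with an adjusted p under 0.05. It called 2.97% of the members, beside 1.93% of all transcripts. The MNA libraries lay wholly above the AF libraries in 33 members (2.80%) and wholly below in 62 (5.26%), against 1.84% and 3.0% of all transcripts and 4.65% and 5.45% of the known spliced transcripts. Of the tested TEC entries, 2.45% of 857 were called in AF against PF and 2.55% of 863 with MNA, close to the shares over all tested members. The higher count fell to 7 without AF replicate 3, 8 without AF replicate 1 and 9 without AF replicate 2, and was 13 with AF replicate 3 and AF with MNA replicate 1 both left out, where the lower count was 10. In the fits without AF replicate 3, 1 or 2, the called share of members was 1.44%, 1.37% and 1.60%, below the 2.11%, 1.95% and 2.23% of all transcripts, whereas it lay above that of all transcripts with all 6 libraries. It also stayed above without AF with MNA replicate 1, 2 or 3, at 1.94%, 1.61% and 1.70% against 1.64%, 1.54% and 1.35%. With AF replicate 3 and AF with MNA replicate 1 both left out it was 2.17% against 3.09%. Of the 27 called members 23 were at 0 in at least 1 of the 6 libraries and 15 were at 0 in a whole group, and in AF against PF these numbers were 17 and 9 of 25. The AF libraries are shared by both comparisons, so a high or low value in AF enters both with opposite sign.

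Gm45244 had the highest level with MNA among the members called higher. It lies opposite to the 5′ part of Acsl1, which encodes an acyl-CoA synthetase that activates long-chain fatty acids (chr8:46471391-46473590, minus strand, 2200 bp). It was at 32.7, 29.2 and 29.6 FPKM in PF, 5.34, 37.3 and 22.2 in AF and 31.6, 74.8 and 87.4 with MNA. AF replicate 2 lay above the first library with MNA, so the groups overlapped, and the PF libraries lay within the AF range. The log2 ratio of AF with MNA to AF was 1.58 and the difference on log2(FPKM + 1) was 1.76 ± 0.58 (SE, limma, adjusted p = 0.591). It was called in 6 of 6 fits with a library left out, but the difference was 1.01 without AF replicate 1, the library at 5.34 FPKM. The Acsl1 entry was at 16.8, 25.3 and 18.4 FPKM in AF and 23.0, 53.8 and 60.2 with MNA, a log2 ratio of 1.18 (limma, adjusted p = 0.94). Both were highest in replicates 2 and 3 of AF with MNA.

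RP23-187B11.10, in an intron of Zfp809, a zinc finger gene that silences retroviral elements, was at 0, 0 and 1.24 FPKM in PF, 0, 0 and 0.211 in AF and 1.63, 2.23 and 3.33 with MNA. All MNA libraries were above all others, with a difference of 1.64 ± 0.33 (SE) from AF on log2(FPKM + 1) (limma, adjusted p = 0.591). Gm45724, described above as lower in AF, was called higher with MNA at a log2 ratio of 1.93 (limma, adjusted p = 0.591), with AF replicate 3 at 6.13 FPKM above MNA replicate 1 at 3.27. It lost the call without AF replicate 1, AF replicate 2 or AF with MNA replicate 2.

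The other members named as higher with MNA were at 0 in all AF libraries or in 2 of them. Gm38034, inside an intron of Foxo1, a transcription factor of hepatic gluconeogenesis, was at 0 in all PF and AF libraries and at 0, 5.70 and 9.66 FPKM with MNA. Its call was lost without AF replicate 3, AF with MNA replicate 2 or AF with MNA replicate 3. The Foxo1 entry went the other way in the same libraries, at 9.27, 3.75 and 3.42 FPKM with MNA, and at 3.51 to 9.54 in AF. Gm45836 was at 7.01, 0 and 3.82 FPKM with MNA and 0 in AF, but at 21.7 in PF replicate 1, and it too was called in 3 of 6 fits with a library left out, its difference of 1.76 from AF becoming 1.13 without AF with MNA replicate 1. Gm43119 (Mn1 intron, 4.04, 2.51 and 0 FPKM with MNA), Gm37334 (0, 2.71 and 3.02) and Gm43294 (Vps50 intron, 2.38, 0 and 2.66) were at 0 in AF, and like Peg13 each was called in 1 of 6 fits with a library left out. In PF, Gm43119 and Gm37334 were at 0 in all libraries, but Gm43294 was at 2.40 FPKM in PF replicate 2, within its range with MNA. Gm44243 was at 1.74, 2.05 and 2.06 FPKM with MNA and at 0, 1.36 and 0 in AF, without overlap, and its call was lost without AF replicate 1 or AF replicate 3.

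Of the members lower with MNA, RP24-282C4.9 had the smallest p. It lies in an intron of Ddx6, an RNA helicase of processing bodies. It was at 4.13, 0 and 3.71 FPKM in PF, 3.88, 2.97 and 4.65 in AF and 0 in all 3 libraries with MNA. The groups compared did not overlap, but PF replicate 2 was at 0 as well. The difference was -2.26 ± 0.30 (SE) on log2(FPKM + 1) (limma, adjusted p = 0.161). The Ddx6 entry was at 19.5, 15.2 and 14.5 FPKM in AF and 19.1, 16.1 and 15.6 with MNA, a difference not past the threshold (limma, adjusted p = 0.999). Gm29055, inside an intron of the exoribonuclease gene Dis3l2, was at 14.9, 12.2 and 14.6 FPKM in PF, 11.1, 8.64 and 17.5 in AF and 0, 8.45 and 0 with MNA. Its middle library with MNA was close to the lowest AF library, and the other values with MNA were 0, which gave a log2 ratio of -2.14 (limma, adjusted p = 0.591). Gm29055 has 3 copies elsewhere. Both were called in 6 of 6 fits with a library left out.

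Gm42908, inside an intron of Mlxip, which encodes a glucose-sensing transcription factor, was at 1.95, 1.49 and 1.38 FPKM in AF and 0, 0.724 and 0 with MNA (limma, adjusted p = 0.591), and was not called without AF replicate 1. 5930420M18Rik (Agbl5 intron) was at 1.57, 1.93 and 1.98 FPKM in AF and 0.588, 0 and 1.05 with MNA, and RP23-159A20.2 (intron of the gephyrin gene Gphn) at 0.933 to 1.95 in AF and 0, 0 and 0.845 with MNA. E030037K01Rik (opposite to Cdkn2aip) was at 0.617, 1.06 and 1.36 FPKM in AF and at 0 with MNA. Gm10524 (opposite to Zfp236) was at 15.9, 2.58 and 0 FPKM in AF and 0 with MNA. RP24-282K24.4, Gm44044 (Rybp intron) and Gm45477 (Gatad2b intron) were at 0 in all libraries with MNA, and the first 2 of them also in 1 AF library. In PF, RP24-282K24.4 and Gm45477 were at 0 in all 3 libraries. Gm10524 was at 16.0, 0 and 0 FPKM in PF, E030037K01Rik at 1.54, 0 and 0 and Gm44044 at 0, 2.09 and 0, so each of these was at 0 in 2 PF libraries as well. 5930420M18Rik and RP23-159A20.2 were at 0 in PF replicate 3, and Gm42908 was at 0.535 to 1.75 FPKM in PF. With a library left out, Gm45477 was called in 0 of 6 fits, RP24-282K24.4 and Gm44044 in 1, E030037K01Rik and RP23-159A20.2 in 2, and 5930420M18Rik and Gm10524 in 3. The difference of -1.97 in Gm10524 became -0.92 without AF replicate 1.

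**Figure D4:**
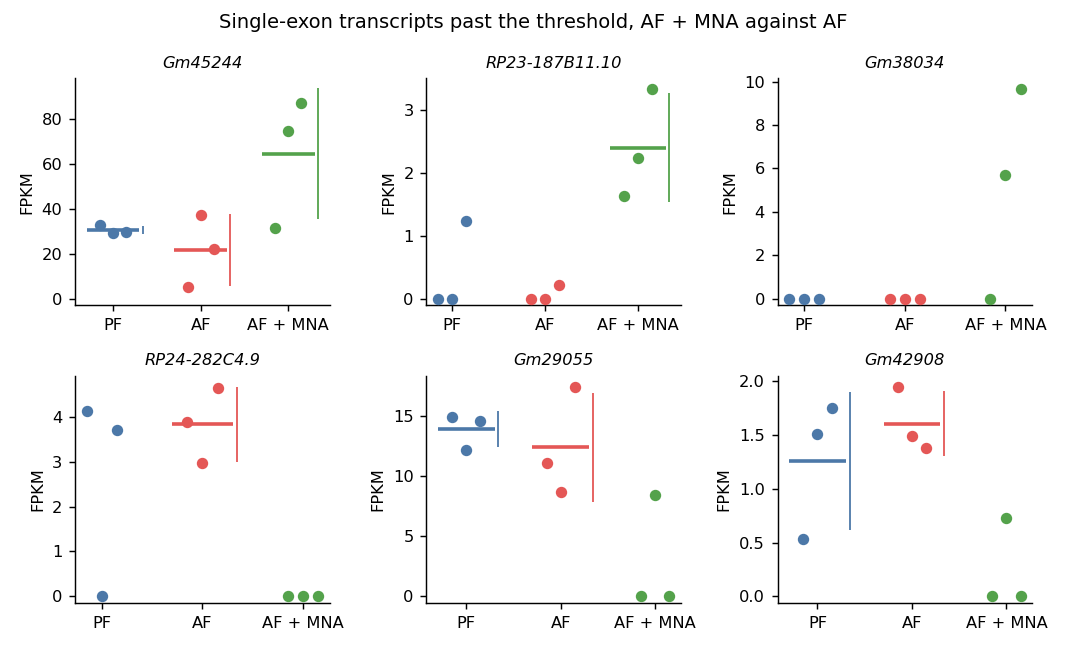
FPKM (vertical axes, each from 0) in PF (blue), AF (red) and AF with MNA (green) for 3 members called higher with MNA (Gm45244, RP23-187B11.10, Gm38034) and 3 called lower (RP24-282C4.9, Gm29055, Gm42908). Points are libraries in replicate order, and horizontal lines with side bars give the mean and 1 SD (n = 3, drawn down to 0 at most) where no library is at 0; RP24-282C4.9 is at 0 in all 3 libraries with MNA and in 1 PF library.

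The coding genes at the called loci mostly were not called themselves. In AF against PF, 21 of the 25 called members overlapped a coding gene. Of these genes, 17 had a tested entry in the gene table that did not hold the member. Of the 17, 3 were called, namely Ildr2, Zbtb20 and the Ces3b entry that holds Ces3a, against 4.3% of 12268 gene entries. In AF with MNA against AF the numbers were 24, 21 and 1, the last being Acsl1, against 1.98% of 12214 entries. An entry can join transcripts of other genes and carry another gene's name, as with Ctbp2 for Fgfr2. The 4 called genes had their member on the opposite strand. The libraries marked strand, but the sources used here do not say that strand was used in counting, so reads of a gene and of a transcript opposite to it may not be fully told apart. Ildr2 faces 5330438I03Rik, which was at 0.817, 0.173 and 0.427 FPKM in PF and 1.72, 1.74 and 1.21 in AF, and the Ildr2 entry was at 0.730, 0.480 and 1.60 and at 4.57, 4.63 and 1.91. The call of 5330438I03Rik was lost without PF replicate 2, PF replicate 3, AF replicate 1 or AF replicate 2. The coding gene's entry had the sign of the member in 9 of 17 and 12 of 21 pairs.

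Across the 9 libraries, which share their FPKM scaling, the median Pearson correlation between a member of at least 0.5 FPKM and its coding gene on the log2(FPKM + 1) scale was 0.29 for 107 members over an exon on the opposite strand, 0.29 for 65 within an intron on the opposite strand and 0.10 for 87 within an intron on the same strand. It passed 0.5 in 31, 18 and 9 of them. For Gm45724 and the Ces3b entry it was 0.88, for Gm45244 and Acsl1 0.83, for Gm38357 and Noct 0.11 and for RP24-282C4.9 and Ddx6 -0.38. The member's mean level was 8.80% of its coding entry for Gm45724 and 122% for Gm45244.

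**Figure D5:**
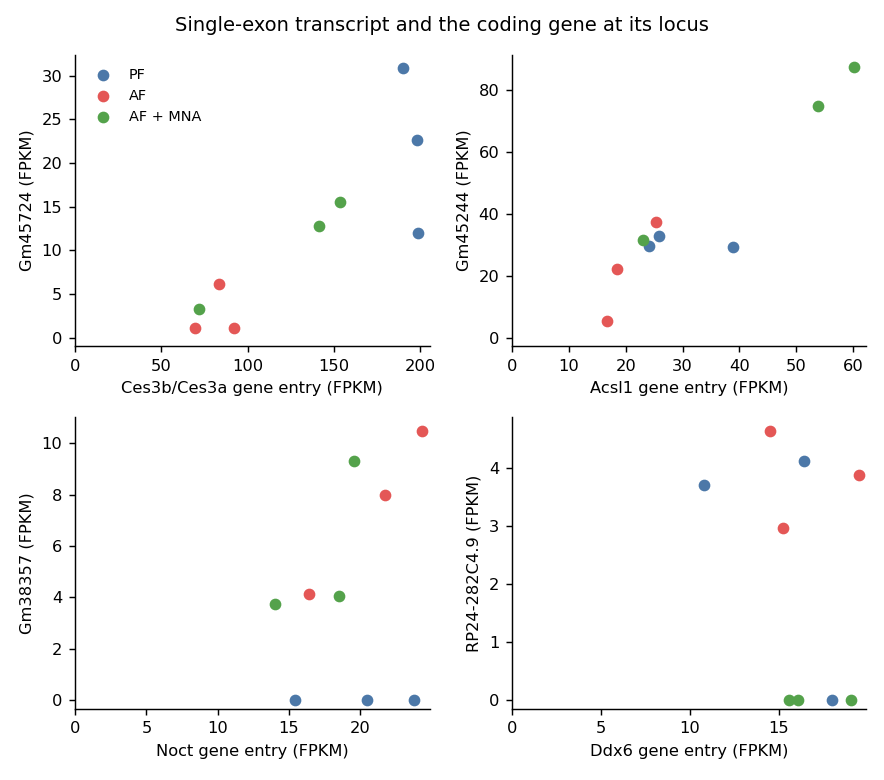
Member FPKM (vertical axes) against the FPKM of the coding gene entry at its locus (horizontal axes) in the 9 libraries, coloured by group (PF blue, AF red, AF with MNA green). Gm45724 and Gm45244 rise with their coding entries on the opposite strand (r = 0.88 and 0.83), while Gm38357 and RP24-282C4.9, inside introns on the same strand, are at 0 in 3 and 4 libraries that lie among the others in Noct and Ddx6.

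By position, 12 of the 25 members called in AF against PF and 18 of the 27 called with MNA were inside an intron on the same strand. The called share was 2.50% of 480 tested intronic members, 1.93% of 363 on the opposite strand, 1.33% of 300 away from coding genes and 5.26% of 38 over an exon on the same strand in AF against PF, and 3.83% of 470, 1.67% of 359, 0.95% of 315 and 0.0% of 35 with MNA, against the background of 2.47% and 1.75% over all transcripts. By biotype, 21 and 22 of the called members were TEC entries. Of those called, 8 and 6 had a mean of at least 2 FPKM in the groups concerned. Of the members tested, 771 and 766 had a mean under 0.5 FPKM, where the +1 pseudocount flattens differences.

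Some RNAs were searched by name. Among 8 names of nuclear and architectural RNAs, 5 had a member. Besides Malat1, the long Neat1 transcript (20771 bp) was at 4.08, 1.82 and 0.223 FPKM in PF, 2.07, 2.09 and 3.90 in AF and 1.94, 1.42 and 1.69 with MNA, and passed neither threshold. The single-exon entry of 2900097C17Rik, the mouse Norad locus, was at 3.20 FPKM in AF with MNA replicate 1 and at 0 elsewhere. Unspliced Rian and Mirg entries of the imprinted Dlk1-Dio3 cluster stayed at or under 0.320 FPKM. Among 9 imprinted or X-inactivation names, 4 had a member. Kcnq1ot1 was at 1.06, 1.50 and 1.28 FPKM in PF, 1.95, 2.26 and 0.707 in AF and 1.74, 1.36 and 2.25 with MNA, and the groups overlapped. Peg13, an imprinted transcript inside Trappc9, was at 2.21, 0 and 2.27 FPKM in AF with MNA and at 0 in all other libraries (limma, adjusted p = 0.591 against AF). Nespas was at 0.0905 FPKM in PF replicate 3 only. None of 7 RNA subunits such as Rmrp and Terc had a member, and of the small-RNA hosts 7 genes had one, of which a 4098-bp Dleu2 entry was the highest at 0.245 to 2.64 FPKM and none was called. In AF against PF, 1 (Malat1) of the 4 nuclear, 2 imprinted and 8 host members tested was called, and with MNA 1 (Peg13) of 6, 3 and 9, beside 2.47% and 1.75% of all transcripts.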

How the data were processed

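Liver RNA of 9 libraries (3 per group) was depleted of ribosomal RNA and sequenced from both ends with strand marking. The authors' processing notes name cutadapt 1.9, HISAT2, TopHat, StringTie 1.3.4 and edgeR, and the genome build is not given in the sources used here. Transcript and gene FPKM values were made by the authors with StringTie from merged transcripts, as was the mean read coverage (signal) of each transcript, which was a fixed multiple of FPKM within each library. The deposited table holds no read counts, so no counting interval is given and precision rests on the spread of 3 libraries. Transcript length and exon number are from the same table. Of the 2483 members, 2472 were found by identifier in GENCODE M21 (GRCm38) and 2463 at the same position, so GRCm38 coordinates are used. CPC and CNCI scores and the circRNA files were not used, and the authors' own comparison columns were neither used nor printed.

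Groups and replicate numbers were taken from the sample labels. All lncRNA transcripts averaging 0.1 FPKM or more in the 6 libraries of a comparison were fitted on log2(FPKM + 1) with limma 3.58.1 (R 4.3.3, two-sided, eBayes with trend, Benjamini-Hochberg over all tested), and gene entries likewise with a minimum of 0.5 FPKM. Fold differences on this scale understate the change of low transcripts. For a single value, 3 against 3 libraries allow no exact permutation p under 0.1. Called members passed an unadjusted p of 0.05 and a log2 ratio of group means beyond 1 or -1. Copies were searched with BLAST 2.17.0 among the M21 transcripts. Coding genes were matched to entries of the gene table through their transcript identifiers, and an entry that also held the member was left out. The fit was tested on simulated data.

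Members named are those with an adjusted p under 0.05, up to 10 higher and 10 lower called members per comparison with the largest coefficient, the 10 highest by mean FPKM (and the 10 highest of at least 500 bp), those in lists of known RNAs, and the coding genes they overlap. A member that this rule names is not reported here. Members and lists were chosen with earlier results of these data known. Samples with the same replicate number did not deviate together (r from -0.04 to 0.03), so the number was not used as a pairing.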

Additional observations from a re-analysis of the deposited data

How the results depend on the processing

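The counts of called members moved with the processing. In AF against PF, the 14 higher and 11 lower members became 33 and 26 when only known transcripts were fitted, and 29 and 19 with the unmoderated fit and its library-size covariate. That was 5.00% and 4.06% of the members, beside 6.05% and 3.43% of all transcripts under the same setting. The higher count was 9 with a minimum mean of 0.5 FPKM and 9 with the limma coefficient in place of the ratio of means, and the lower count was 17 without a filter on low values. The called shares there were 4.63%, 1.44% and 1.52% of the members, beside 7.60%, 1.40% and 2.16% of all. In AF with MNA against AF, the 16 higher and 11 lower members became 25 and 32 with known transcripts only (4.83%, beside 4.49% of all). The lower count was 19 with a pseudocount of 0.1, 23 with the unmoderated fit and 6 with the limma coefficient, where 3.05%, 2.97% and 1.61% of the members were called in either direction, beside 3.03%, 1.93% and 1.07% of all. The cause was not tested. With 1 library left out, the counts ran from 7 to 14 higher and 8 to 12 lower in AF against PF, and from 7 to 13 higher and 8 to 10 lower with MNA. In these fits 1.31 to 2.15% of the members and 2.02 to 3.63% of all transcripts were called in AF against PF, and 1.37 to 1.94% and 1.35 to 2.23% with MNA.

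Across 272 alternative values of the 25 members called in AF against PF, 235 stayed past the threshold, and across 296 of the 27 called with MNA, 255 did. None changed direction. With 1 library left out, 74 of 150 and 70 of 162 stayed past it. With the replicate number as a block, 13 were higher and 12 lower in AF against PF, and 18 and 12 with MNA (2.12% and 2.54% of the members, beside 2.39% and 1.60% of all), although the numbers did not pair the samples. Without the members that have a copy elsewhere, an alternative chosen after seeing the data, the counts were 14 and 10, and 15 and 10 (2.26% of 1062 and 2.36% of 1060 members tested, beside 2.47% and 1.75% of all transcripts). Gm38357 passed the adjusted threshold in AF against PF, but not without a filter, without the trend, in the unmoderated fit or with any library other than AF replicate 2 left out. RP24-282C4.9 passed it with MNA when only known transcripts were fitted, and Gm29055 without AF with MNA replicate 2. The FPKM values carry no counts, so a member listed at 0 cannot be given a limit.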

Other observations

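Some members moved together across the groups, and these were singled out after their values were seen. Gm37416, a 318-bp entry opposite to Malrd1 with 5 near-identical copies, was at 29.8, 18.7, 12.0 and 25.5 FPKM in PF replicate 2, AF replicate 2 and AF with MNA replicates 2 and 3, and at most 0.933 FPKM in the other 5 libraries. Gm43609, a 2712-bp entry without such a copy inside an intron of Abcd3, a peroxisomal fatty acid transporter gene, was at 4.47, 7.97, 7.07 and 6.15 FPKM in the same 4 libraries and at most 0.866 FPKM in the others. The 4 libraries belong to all 3 groups, so the feeding groups do not separate them.

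Gm43694 and Gm42887, both 1119 bp on chromosome 5 and 99.9% identical, were at 6.82 and 6.77 FPKM in PF replicate 3, 5.78 and 6.19 in AF replicate 1, 5.66 and 5.96 in AF replicate 2 and 6.06 and 6.28 in AF with MNA replicate 2, and at no more than 0.302 FPKM in the other 5 libraries. As with Gm42428 and ENSMUST00000213811, entries that share a sequence were high in the same libraries.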
